A study of Mus musculus with 18 samples.

Results

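The genes that copy DNA and prepare a cell for S phase were followed by RNA sequencing in 3T3-L1, mouse fibroblast cells that can be turned into adipocytes in culture. The set is 47 genes, taken from the deposited tables by gene symbol, of 15194 genes that those tables list in all. Control cells (CTL) and cells labelled as MLKL-/- or RIPK3-/- were each sequenced at J0, given as untreated and undifferentiated, and at J7, given as differentiated, with 3 libraries in each of the 6 groups. RIPK3 is the kinase that activates MLKL, the membrane-permeabilising protein of necroptosis. How the knockouts were made, whether a line is 1 clone and what the control cells carry are not given in the sources used here. The groups are called J7_RIPK3, J0_RIPK3, J7_MLKL, J0_MLKL, J7_CTL and J0_CTL after the sample titles. For the 6 J7 knockout libraries the genotype entry names the other knockout than the title does. The deposited counts carry the same names as the titles. J7_RIPK3 and J7_MLKL are therefore names by title and count column, against the genotype entry.

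As background, replication starts when ORC, CDC6 and CDT1 load the ring-shaped MCM helicase onto origins in G1. CDC45 and the GINS complex then join the ring, and cyclin E with its kinase, together with E2F transcription factors, opens S phase. Primase and the polymerases copy the strands on the PCNA clamp, ribonucleotide reductase and thymidylate enzymes supply nucleotides, and CAF-1 packs the new DNA into chromatin. Confluent 3T3-L1 cells re-enter the cell cycle for a short time after adipogenic induction, before they become fat cells.

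Library totals were 20.2 to 36.9 M reads. The deposited tables had been cut by the authors to genes past an adjusted p of 0.05, which leaves a gene with counts in a group only where a table with that group kept it, and makes the share of tested genes that are called high in every comparison. The share of a library's reads found in these tables was 29.3 to 30.4% in J0_MLKL, 53.5 to 54.5% in J7_MLKL and up to 98.4% in the CTL and RIPK3 groups. Of the 47 genes, 44 have counts in all 4 CTL and RIPK3 groups, 15 in J7_MLKL, 12 in J0_MLKL and 7 in all 6 groups. The labels do not say whether libraries of 1 group came from separate cultures, so a p-value here is set by the spread of the libraries alone, which may be technical. Mcm7, Gins2, Cdc45, Orc1, Orc6, Rfc4, Rfc5, Fen1, Lig1, Tk1, Ccne2 and Chaf1a overlap another listed gene, and as no source used here says whether counting used strand, their reads may include that gene's. Ripk3 averaged 15.9 ± 1.31 CPM (read counts scaled to the library's total reads, SD, n = 3) in J0_RIPK3 and 18.2 ± 1.40 in J0_CTL, and Mlkl averaged 8.05 ± 1.45 in J0_MLKL and 18.9 ± 0.793 in J0_CTL. Ripk3 was also low in J0_MLKL, at 7.45 ± 1.87 CPM. At J7, Ripk3 averaged 10.9 ± 0.750 CPM in J7_RIPK3, 9.23 ± 2.4 in J7_MLKL and 18.3 ± 0.842 in J7_CTL, and Mlkl averaged 29.1 ± 2.94, 15.1 ± 1.24 and 26.3 ± 1.10 in the same 3 groups. An edited gene can keep its transcript, so these levels do not say which of the 2 J7 labels is right. If the genotype entry is the right one, the names J7_RIPK3 and J7_MLKL change places in all that follows. Summed over 6 adipocyte markers (Adipoq, Fabp4, Plin1, Pparg, Cebpa, Lpl), libraries held 21138 to 22772 CPM in J7_RIPK3, 344 to 354 in J0_RIPK3, 18812 to 19749 in J7_CTL and 290 to 298 in J0_CTL. The J7_MLKL libraries held 3406 to 4759 CPM. Of the macrophage, endothelium, epithelium and skeletal muscle markers looked for, Ptprc, Adgre1, Kdr, Epcam, Myod1, Myog and Myh3 are in no table, and Cdh1 had at most 0.436 CPM where it is listed. The listed macrophage markers (Cd68, Csf1r) summed to at most 7 CPM in any library, the endothelium markers (Pecam1, Cdh5) to at most 5 and the muscle marker Acta1 to at most 6. The epithelium markers Krt8 and Krt18 summed to 18 to 19 CPM in J7_RIPK3, 0 in J0_RIPK3, 1 to 2 in J7_MLKL, 31 to 36 in J7_CTL and 0 in J0_CTL, in rounded CPM, and both were called higher in J7_RIPK3 against J0_RIPK3 and in J7_CTL against J0_CTL. The part of these markers in what follows was not tested. The third J7_MLKL library stood furthest from the others of its group: over 15 S phase genes its median absolute log2 distance from them was 0.46. That of the first and second was 0.24 and 0.21. In J0_MLKL it was 0.08, 0.24 and 0.20 over 12 genes. Every CTL and RIPK3 library had 0.05 to 0.09, over 46 or 47 genes.

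Levels of the S phase genes were also read per kilobase of gene model. The median over the 44 genes was 5.28 FPKM (reads scaled to the library total and to the length of the gene model) in J7_RIPK3, 8.65 in J0_RIPK3, 7.66 in J7_CTL and 5.36 in J0_CTL. The lowest mean was that of Fen1, the flap nuclease, with 0.751 ± 0.138 FPKM in J7_RIPK3 (SD, n = 3), and that of Mcm10, a helicase activator, in the other 3 groups, with 1.11 ± 0.0322 in J0_RIPK3, 1.09 ± 0.0445 in J7_CTL and 0.485 ± 0.0955 in J0_CTL. The highest mean was that of Rpa3, a subunit of the single-strand binding protein, at J7 (44.8 ± 2.22 FPKM in J7_RIPK3 and 49.5 ± 1.38 in J7_CTL). Pcna, the sliding clamp, was highest in J0_RIPK3 with 36.1 ± 2.50 FPKM, and Gins4 was highest in J0_CTL with 24.4 ± 0.196. The 6 MCM subunits, which form 1 ring, were not at equal FPKM: the highest stood 3.07-fold over the lowest in J7_RIPK3, 2.76-fold in J0_RIPK3, 2.01-fold in J7_CTL and 3.84-fold in J0_CTL. Mcm5 was the lowest of the 6 in each of those groups, with 4.83 ± 0.355, 12.9 ± 0.138, 8.12 ± 0.149 and 6.33 ± 0.127 FPKM in that order of groups. By group means in CPM, 32 of the 44 genes were highest in J0_RIPK3, 11 in J7_CTL, 1 (Rfc1) in J7_RIPK3 and 0 in J0_CTL. The lowest group was J7_RIPK3 for 24 genes and J0_CTL for the other 20.

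**Figure D1:**
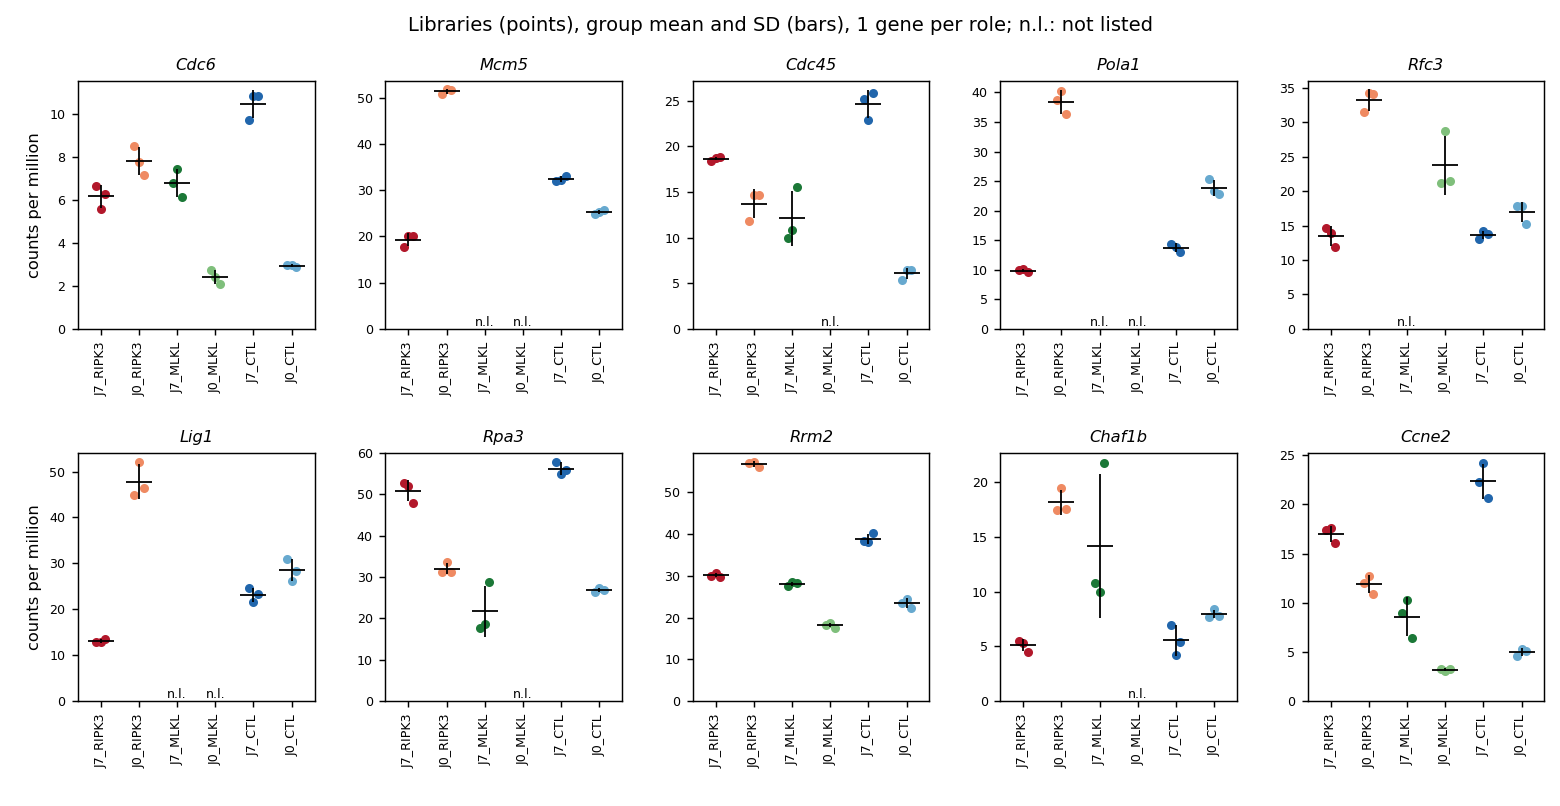
CPM (linear axis from 0) of 1 gene from each of 10 roles in the 18 libraries, grouped by title; points are libraries, the wide tick is the group mean, the bar is its SD, and n.l. marks a group with no listed counts. J0_RIPK3 is above J0_CTL in all 10 panels, while J7_CTL is above J0_CTL for Cdc6 and Ccne2 and below it for Pola1 and Lig1.

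The comparison of J0_RIPK3 with J0_CTL asks how undifferentiated cells labelled RIPK3-/- differ from control cells. Each of the 46 S phase genes that could be tested was called higher (edgeR adjusted p under 0.05) and 0 lower, where 28.3% of the 11044 genes tested were called higher and 27.4% lower. Their log2 fold changes ran from 0.20 to 1.38 with a median of 0.63, against a median of -0.01 over all genes tested. The authors' deposited table of this comparison lists 45 of the 47 genes, and all 45 are higher there. In bulk RNA, fewer cells of a type and less RNA per cell cannot be told apart. Orc1 had no counts in J0_CTL and could not be tested. Gins3 was not called without J0_CTL 3, J0_RIPK3 1 or J0_RIPK3 3, and Fen1 was not called without J0_RIPK3 3. Leaving out 1 library at a time left 44 to 46 genes called higher.

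Origin licensing held the gene with the highest log2 fold change. Cdc6 had 8.50, 7.76 and 7.17 CPM in J0_RIPK3, against 2.96, 2.98 and 2.87 in J0_CTL. The groups lay far apart, 2.66-fold by their means, with a log2 fold change of 1.38 ± 0.13 (SE; adjusted p = 2.92e-09). Cdt1, the partner of CDC6 in helicase loading, was 1.51-fold higher (log2 0.57 ± 0.08). Orc6, an origin recognition subunit, had 43.8, 41.9 and 40.8 CPM in J0_RIPK3, against 32.6, 34.6 and 34.4 in J0_CTL. Its groups did not overlap either, but the fold was 1.25 (log2 0.29 ± 0.05, adjusted p = 2.89e-05).

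All 6 MCM genes were higher in J0_RIPK3, with log2 fold changes from 0.52 to 1.00. Mcm5 had 50.8, 51.8 and 51.7 CPM in J0_RIPK3, against 24.8, 25.3 and 25.8 in J0_CTL, a 2.03-fold difference (log2 1.00 ± 0.05, adjusted p = 3.67e-14). Mcm4, the lowest of the 6 by fold change, had 122, 135 and 125 CPM in J0_RIPK3, against 89.5, 83.3 and 89.1 in J0_CTL (log2 0.52 ± 0.04, adjusted p = 1.36e-10). Both pairs of groups lay apart, and the 2 subunits of 1 ring differed in the size of the difference. Among the helicase activators, Mcm10 had 8.70, 8.28 and 8.72 CPM in J0_RIPK3, against 3.68, 4.49 and 3.03 in J0_CTL (log2 1.17 ± 0.13, adjusted p = 4.98e-08). Cdc45, which joins the ring to form the active helicase, had 11.9, 14.7 and 14.6 CPM in J0_RIPK3, against 5.38, 6.41 and 6.46 in J0_CTL (log2 1.16 ± 0.11). The GINS subunits did not move by equal amounts. Gins4 had 37.5, 38.4 and 40.0 CPM in J0_RIPK3, against 33.1, 32.6 and 32.9 in J0_CTL (log2 0.21 ± 0.05, adjusted p = 0.000775), whereas Gins2 was 1.84-fold higher (log2 0.86 ± 0.09).

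Of the 8 polymerase and primase genes, Pole, the catalytic subunit of the leading-strand polymerase epsilon, had 30.2, 29.8 and 31.5 CPM in J0_RIPK3, against 14, 13.2 and 12.3 in J0_CTL (2.32-fold, log2 1.19 ± 0.07, adjusted p = 7.60e-13). Pold2, an accessory subunit of polymerase delta, had 38.8, 39.7 and 39.1 CPM in J0_RIPK3, against 32.5, 35.4 and 33.3 in J0_CTL (1.16-fold, log2 0.20 ± 0.05, adjusted p = 0.00206). The other 6 lay between log2 0.28 (Prim1) and 0.66 (Pola1). In the clamp and its loader, Rfc3 had 31.4, 34.3 and 34.2 CPM in J0_RIPK3, against 17.8, 17.8 and 15.3 in J0_CTL (log2 0.95 ± 0.07, adjusted p = 4.06e-11). Rfc2 had 44.1, 45.1 and 46.0 CPM in J0_RIPK3, against 35.4, 35.2 and 34.9 in J0_CTL (log2 0.34 ± 0.05, adjusted p = 1.56e-06). Pcna was 1.64-fold higher (log2 0.69 ± 0.04), with a near-identical copy, Pcna-ps2, also listed in the tables, between which reads can be split. Both Okazaki fragment genes were higher: Lig1, the ligase, had 44.8, 52.1 and 46.4 CPM in J0_RIPK3, against 31.1, 26.1 and 28.4 in J0_CTL (log2 0.71 ± 0.06, adjusted p = 1.15e-09). Fen1 had only 3.15, 2.83 and 4.25 CPM in J0_RIPK3, against 1.81, 2.09 and 2.54 in J0_CTL (log2 0.69 ± 0.19, adjusted p = 0.00301). Of the single-strand binding subunits, Rpa2 had 19.9, 18 and 18.8 CPM in J0_RIPK3, against 13.9, 13.0 and 11.9 in J0_CTL (log2 0.52 ± 0.08). Rpa3 differed least of the 3, with 31.2, 33.6 and 31.3 CPM in J0_RIPK3, against 26.4, 27.3 and 26.9 in J0_CTL (log2 0.23 ± 0.06, adjusted p = 0.00123).

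Nucleotide supply had the highest role median, 1.13 on the log2 scale. Rrm2, the regulated subunit of ribonucleotide reductase, had 57.0, 57.1 and 56.0 CPM in J0_RIPK3, against 23.6, 24.5 and 22.3 in J0_CTL (2.42-fold, log2 1.25 ± 0.05, adjusted p = 1.44e-15). Dut, the dUTPase, had 28.9, 26.8 and 27.6 CPM in J0_RIPK3, against 20.8, 21.9 and 20.9 in J0_CTL (1.31-fold, log2 0.37 ± 0.06). Tk1 and Tyms, which make thymidine monophosphate by salvage and from dUMP, were 2.24-fold and 2.22-fold higher. Chaf1b, a CAF-1 subunit, had 17.5, 19.5 and 17.5 CPM in J0_RIPK3, against 7.67, 8.40 and 7.79 in J0_CTL (log2 1.17 ± 0.09, adjusted p = 7.05e-11). Slbp, which binds the stem-loop of histone mRNAs, had 51.8, 54.4 and 51.2 CPM in J0_RIPK3, against 35.4, 35.8 and 34.8 in J0_CTL (log2 0.55 ± 0.05). Uhrf1, which helps to copy DNA methylation, was 2.21-fold higher. Among the G1/S regulators, Ccne2, a cyclin E, had 12, 12.7 and 10.9 CPM in J0_RIPK3, against 4.57, 5.32 and 5.09 in J0_CTL (log2 1.23 ± 0.11, adjusted p = 1.18e-09). E2f1 had 45.2, 48.7 and 46.4 CPM in J0_RIPK3, against 40.0, 39.1 and 39.4 in J0_CTL, so the groups did not overlap, and they differed 1.19-fold (log2 0.22 ± 0.05, adjusted p = 0.00027).

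**Figure D2:**
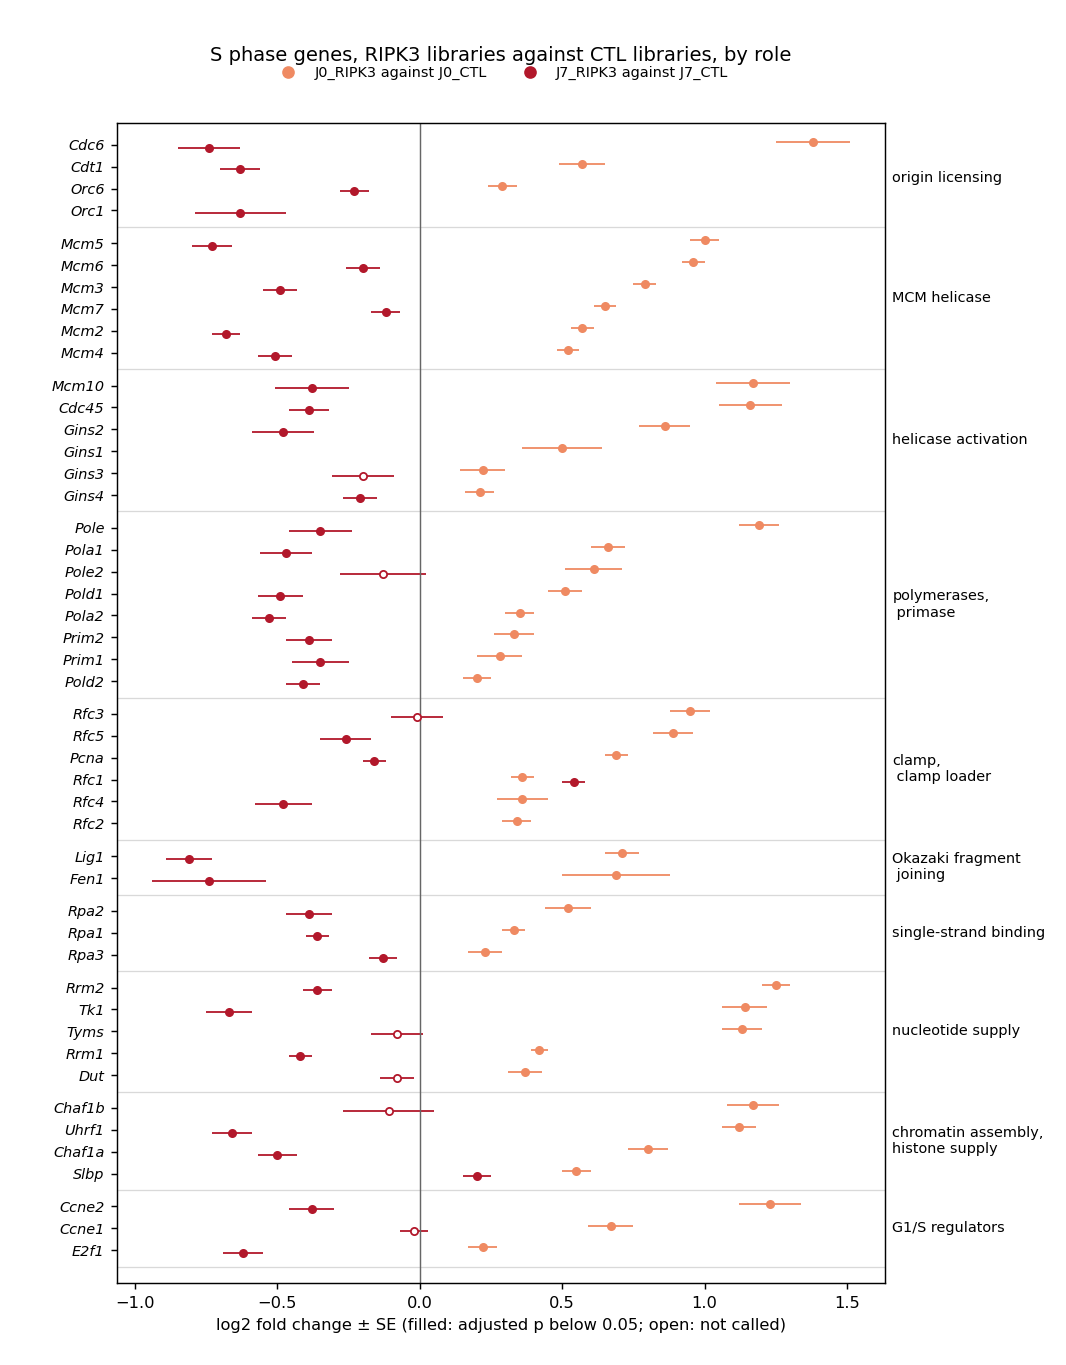
Log2 fold change with its SE (edgeR, n = 3 libraries a group) of each S phase gene, J0_RIPK3 against J0_CTL in orange and J7_RIPK3 against J7_CTL in dark red, by role; filled points have adjusted p below 0.05. All 46 orange points are right of 0, and of the 45 dark red points 36 called ones are left of 0 and 2 called ones, Rfc1 and Slbp, are right of it.

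Promoters of members that moved together were read from RefSeq (GRCm38.p6, the assembly of mm10) in windows from 250 bases before to 50 bases after the RefSeq start. That start is not always the start of the gene model used for counting. The windows of Cdc6, Mcm7, E2f1 and Dut lie wholly inside the span of the counted gene. Those of Mcm5, Fen1, Lig1 and Rpa1 lie wholly before it. A window was found for 39 of the 47 genes. Gins1, Gins2, Gins4, Mcm4, Ccne2, Prim2, Rfc2 and Pole had none. E2F factors bind elements of the form TTTCCCGC, TTTCGCGC, TTTGCCGC or TTTGGCGC, and these 4 words were searched on both strands, where TTTCGCGC and TTTGGCGC can share bases on opposite strands. They occurred in 12 of the 39 windows (30.8%), in 480 of 13408 windows of genes in the tables (3.58%) and in 744 of all 32851 windows of that length (2.26%). The 12 genes are Mcm3, Mcm5, Mcm6, Mcm7, Gins3, Cdc6, Cdt1, Orc1, Pola1, Pole2, Pold1 and Rfc3, and 5 of them hold more than 1 such word. The CCAAT box (CCAAT, either strand), the word bound by NF-Y, occurred in 24 of the 39 windows (61.5%), in 37.9% of windows of genes in the tables and in 37.4% of all windows. The GC box GGGCGG occurred in 76.9% of the 39, 58.5% of windows of genes in the tables and 35.7% of all windows. TTTGAA, the word of the cell cycle homology region, occurred in 10.3%, 12.6% and 17.9% of the same 3 sets. A word found is a match of letters and not a measured binding site. The windows of 4 MCM genes with such words, of Cdc6, the licensing gene with the highest log2 fold change, and of Pola1, whose log2 fold change in J7_CTL is the lowest of the set, are given 5′ to 3′ on the gene's own strand with the E2F words in capitals.
Mcm3 (chr1:20820263-20820562, minus strand): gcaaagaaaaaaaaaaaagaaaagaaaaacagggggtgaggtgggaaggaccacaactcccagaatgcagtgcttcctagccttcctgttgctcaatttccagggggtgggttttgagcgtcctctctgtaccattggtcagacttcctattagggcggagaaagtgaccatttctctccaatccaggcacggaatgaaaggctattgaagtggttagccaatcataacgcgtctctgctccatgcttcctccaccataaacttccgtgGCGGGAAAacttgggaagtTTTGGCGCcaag
Mcm5 (chr8:75109259-75109558, plus strand): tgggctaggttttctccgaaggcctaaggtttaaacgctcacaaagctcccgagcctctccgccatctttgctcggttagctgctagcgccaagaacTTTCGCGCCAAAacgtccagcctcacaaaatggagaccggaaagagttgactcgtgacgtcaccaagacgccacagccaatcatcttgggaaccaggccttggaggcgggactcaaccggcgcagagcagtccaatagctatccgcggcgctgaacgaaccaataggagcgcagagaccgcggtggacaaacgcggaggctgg
Mcm6 (chr1:128359656-128359955, minus strand): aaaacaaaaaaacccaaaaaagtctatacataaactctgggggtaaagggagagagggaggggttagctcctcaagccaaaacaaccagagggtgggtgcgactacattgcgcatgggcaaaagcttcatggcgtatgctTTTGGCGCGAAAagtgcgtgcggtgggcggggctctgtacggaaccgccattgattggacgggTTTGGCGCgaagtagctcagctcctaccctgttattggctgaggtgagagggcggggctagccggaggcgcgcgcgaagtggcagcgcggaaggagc
Mcm7 (chr5:138171834-138172133, minus strand): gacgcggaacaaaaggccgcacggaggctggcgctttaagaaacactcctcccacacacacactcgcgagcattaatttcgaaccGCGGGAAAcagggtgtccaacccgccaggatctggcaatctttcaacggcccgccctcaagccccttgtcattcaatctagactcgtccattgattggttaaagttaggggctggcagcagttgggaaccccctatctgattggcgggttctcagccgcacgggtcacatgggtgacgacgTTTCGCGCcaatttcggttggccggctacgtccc
Cdc6 (chr11:98907901-98908200, plus strand): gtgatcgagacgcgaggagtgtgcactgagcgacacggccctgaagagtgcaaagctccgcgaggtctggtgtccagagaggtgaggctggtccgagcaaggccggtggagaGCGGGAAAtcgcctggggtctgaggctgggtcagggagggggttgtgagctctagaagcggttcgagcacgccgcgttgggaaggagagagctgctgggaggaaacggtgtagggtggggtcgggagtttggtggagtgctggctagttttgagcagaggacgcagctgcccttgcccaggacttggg
Pola1 (chrX:93632106-93632405, minus strand): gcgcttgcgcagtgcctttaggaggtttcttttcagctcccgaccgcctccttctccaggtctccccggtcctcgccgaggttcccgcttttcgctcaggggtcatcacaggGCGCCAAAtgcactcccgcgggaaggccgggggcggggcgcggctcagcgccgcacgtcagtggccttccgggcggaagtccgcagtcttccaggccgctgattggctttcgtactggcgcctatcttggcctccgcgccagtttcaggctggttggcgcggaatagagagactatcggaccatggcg
In Mcm5, and in the first run of capitals in Mcm6, 2 words overlap on opposite strands. Mcm5 and Mcm6 rose nearly alike in J0_RIPK3, 2.03-fold and 1.97-fold. They took opposite directions in J7_CTL, where Mcm5 was 1.28-fold higher and Mcm6 1.24-fold lower than in J0_CTL.

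Control cells after differentiation were set against undifferentiated ones (J7_CTL against J0_CTL), and here the S phase genes split. Of 45 tested, 26 were higher, 12 lower and 7 not called (Mcm3, E2f1, Pola2, Prim2, Pole, Rpa1 and Slbp), where 48.2% of all 12055 genes tested were higher and 47.6% lower. The median log2 fold change was 0.24, against 0.03 over all genes tested. All 3 licensing genes tested and both cyclin E genes were higher, and 4 of 8 polymerase and primase genes were lower. Tyms was called lower (log2 -0.17 ± 0.08, adjusted p = 0.0448) but not with total reads, the authors' size factors, DESeq2 size factors, DESeq2's Wald test or the replicate block, nor without J0_CTL 1, J0_CTL 3, J7_CTL 1 or J7_CTL 3. Fen1 was not called without J0_CTL 1 or J7_CTL 3, nor Rfc5 without J7_CTL 3. Mcm3 was called higher with total reads, with the authors' size factors and without J7_CTL 2, Slbp with the authors' size factors, and E2f1 lower without J7_CTL 1.

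Ccne2 had 22.3, 24.2 and 20.6 CPM in J7_CTL, against 4.57, 5.32 and 5.09 in J0_CTL, the largest ratio of the set at 4.48-fold (log2 2.12 ± 0.09, adjusted p = 1.75e-16). Ccne1, the other cyclin E, was 3.22-fold higher with 36.3, 37.1 and 38.4 CPM in J7_CTL, against 11.6, 11.1 and 12 in J0_CTL (log2 1.64 ± 0.06). E2f1, by contrast, had 42.9, 38.4 and 35.4 CPM in J7_CTL, within the reach of 40.0, 39.1 and 39.4 in J0_CTL (log2 -0.07 ± 0.06, adjusted p = 0.254). Both cyclin E genes were therefore outside the spread of the libraries and E2f1 was not. In licensing, Cdc6 had 9.74, 10.8 and 10.9 CPM in J7_CTL, against 2.96, 2.98 and 2.87 in J0_CTL (3.57-fold, log2 1.79 ± 0.12, adjusted p = 6.76e-13). Cdt1 had 30.4, 29.3 and 33.4 CPM in J7_CTL, against 11.7, 10.8 and 11.5 in J0_CTL (2.73-fold, log2 1.41 ± 0.07). Orc6 had 52.3, 50.7 and 47.7 CPM in J7_CTL, against 32.6, 34.6 and 34.4 in J0_CTL (1.48-fold, log2 0.52 ± 0.05). All 3 tested licensing genes were thus higher, with no overlap between groups, which was not counted over all genes tested.

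The helicase itself was mixed. Mcm7 had 72.8, 67.7 and 75.6 CPM in J7_CTL, against 49.4, 50.4 and 48.8 in J0_CTL (log2 0.50 ± 0.04, adjusted p = 1.81e-10), and its overlapping neighbours on the opposite strand are Cops6 and Ap4m1. Mcm4 went the other way, with 53.5, 49.5 and 53.1 CPM in J7_CTL, against 89.5, 83.3 and 89.1 in J0_CTL (1.68-fold lower, log2 -0.79 ± 0.04, adjusted p = 5.71e-15). Of the 6 subunits 3 were higher (Mcm2, Mcm5, Mcm7), 2 lower (Mcm4, Mcm6) and Mcm3 was not called. Among the activators, Cdc45 had 25.2, 22.9 and 25.8 CPM in J7_CTL, against 5.38, 6.41 and 6.46 in J0_CTL (4.05-fold, log2 1.98 ± 0.09, adjusted p = 2.05e-16). Gins3 was the only activator lower, with 8.37, 8.36 and 8.91 CPM in J7_CTL, against 11.6, 11.3 and 10.9 in J0_CTL (log2 -0.44 ± 0.09, adjusted p = 7.72e-05). The GINS complex thus held both directions, since Gins1, Gins2 and Gins4 were higher (log2 0.93, 0.58 and 0.23).

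Of the 8 polymerase and primase genes, 4 were lower (Pola1, Pole2, Prim1, Pold1), 1 was higher (Pold2) and 3 were not called. Pola1, the catalytic subunit of the polymerase that carries primase, had 14.4, 13.9 and 13.0 CPM in J7_CTL, against 25.4, 23.4 and 22.8 in J0_CTL (1.73-fold lower, log2 -0.84 ± 0.07, adjusted p = 7.08e-11). Pold2 had 40.1, 40.3 and 44.5 CPM in J7_CTL, against 32.5, 35.4 and 33.3 in J0_CTL (log2 0.26 ± 0.06, adjusted p = 0.000113). In the clamp loader, Rfc4 had 17.5, 14.1 and 15.0 CPM in J7_CTL, against 9.31, 9.60 and 9.28 in J0_CTL (log2 0.68 ± 0.09). Of the 4 loader subunits tested, Rfc2 not being among them, only Rfc3 was lower, with 13.1, 14.2 and 13.8 CPM in J7_CTL, against 17.8, 17.8 and 15.3 in J0_CTL (log2 -0.36 ± 0.08, adjusted p = 0.000197). Fen1 had 2.78, 2.76 and 3.58 CPM in J7_CTL, against 1.81, 2.09 and 2.54 in J0_CTL (log2 0.48 ± 0.19, adjusted p = 0.0197), while Lig1 had 24.6, 21.6 and 23.3 CPM in J7_CTL, against 31.1, 26.1 and 28.4 in J0_CTL (log2 -0.35 ± 0.07). Nuclease and ligase of 1 pathway step thus differed in direction. Rpa3 had 57.9, 54.8 and 55.9 CPM in J7_CTL, against 26.4, 27.3 and 26.9 in J0_CTL (2.09-fold, log2 1.02 ± 0.05, adjusted p = 7.80e-16). Rpa1, its partner with the main DNA-binding domains, had 74.5, 70.4 and 71.8 CPM in J7_CTL, against 70.4, 71.8 and 68.6 in J0_CTL, with overlapping groups (log2 -0.01 ± 0.04, adjusted p = 0.881).

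Nucleotide enzymes split within 1 enzyme. Rrm1, the large subunit of ribonucleotide reductase, had 75.7, 73.3 and 72.0 CPM in J7_CTL, against 123, 124 and 123 in J0_CTL (1.68-fold lower, log2 -0.79 ± 0.03, adjusted p = 9.05e-17). Rrm2, the small subunit, had 38.3, 38.0 and 40.1 CPM in J7_CTL, against 23.6, 24.5 and 22.3 in J0_CTL (1.65-fold higher, log2 0.68 ± 0.06). Per length this took Rrm2 to 14 ± 0.417 FPKM against 6.69 ± 0.173 for Rrm1 in J7_CTL, where J0_CTL had 8.47 ± 0.393 and 11.2 ± 0.0614 for the same 2 genes (SD, n = 3). The order of the 2 subunits by FPKM was reversed between the groups, whereas by CPM Rrm1 was above Rrm2 in both. The FPKM order rests on the lengths of the gene models, that of Rrm1 being the longer. Whether these lengths match the transcripts in the cells was not tested, so which subunit had more transcripts is not settled. Tk1 was highest in its role, with 22.7, 23.9 and 26.0 CPM in J7_CTL, against 11.3, 11.3 and 11.9 in J0_CTL (2.11-fold, log2 1.03 ± 0.07). In chromatin assembly, Chaf1a had 21.8, 21.8 and 20.8 CPM in J7_CTL, against 16.2, 17.0 and 15.5 in J0_CTL (log2 0.36 ± 0.07). Chaf1b, the next subunit of the same complex, had 7.0, 4.26 and 5.37 CPM in J7_CTL, against 7.67, 8.40 and 7.79 in J0_CTL (log2 -0.57 ± 0.14, adjusted p = 0.000414).

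In cells titled RIPK3 the change between J7 and J0 was mostly downward. Of 46 genes tested in J7_RIPK3 against J0_RIPK3, 38 were lower, 6 higher (Ccne1, Ccne2, Cdc45, Cdt1, Rfc1, Rpa3) and 2 not called (Rfc4, Orc6), where 48.5% of the 11798 genes tested were lower and 49.3% higher. The median log2 fold change was -0.84, against 0.04 over all genes tested. Cdt1 (log2 0.19 ± 0.07) was not called without J0_RIPK3 3 or J7_RIPK3 1, and Rfc4 was called lower without J7_RIPK3 1. The J7 groups can also be taken from the genotype entry in place of the title. Only 15 of the genes can then be tested, of which 7 are lower and 0 higher. Of all 6442 genes tested in that fit, 1341 were lower and 1513 higher. Ccne1, Ccne2, Cdc45, Rfc1 and Rpa3 are then below 0 (log2 -0.85, -0.46, -0.17, -0.34 and -0.55). Tk1 is then above 0 (log2 0.28).

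Pola1 had 9.92, 10.1 and 9.63 CPM in J7_RIPK3, against 38.7, 40.3 and 36.3 in J0_RIPK3, the largest drop of the set (3.90-fold lower, log2 -1.99 ± 0.07, adjusted p = 6.46e-17). Lig1 had 12.8, 12.9 and 13.6 CPM in J7_RIPK3, against 44.8, 52.1 and 46.4 in J0_RIPK3 (3.65-fold lower, log2 -1.89 ± 0.07). Mcm4 had 34.4, 39.4 and 34.8 CPM in J7_RIPK3, against 122, 135 and 125 in J0_RIPK3 (3.52-fold lower, log2 -1.85 ± 0.05). These 3 were also lower in J7_CTL against J0_CTL, by 1.73-fold, 1.23-fold and 1.68-fold. All 6 MCM genes, all 8 polymerase and primase genes, all 5 nucleotide genes and all 4 chromatin genes were lower in J7_RIPK3, with role medians of -1.32, -1.19, -0.94 and -1.26. Ccne1 was highest on the other side, with 37.2, 37.3 and 34.8 CPM in J7_RIPK3, against 17.3, 20.7 and 18.1 in J0_RIPK3 (1.95-fold, log2 0.94 ± 0.07, adjusted p = 2.30e-11). Rfc1, the large subunit of the clamp loader, had 151, 166 and 151 CPM in J7_RIPK3, against 95.1, 96.9 and 93.7 in J0_RIPK3 (1.64-fold, log2 0.68 ± 0.04).

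The J7 minus J0 change was then compared between RIPK3 and CTL in 1 fit over the 4 groups. The RIPK3 change was lower than the CTL change for 43 of 44 genes and higher for 1, Rfc1 (difference 0.19 ± 0.05, adjusted p = 0.00604), where 20.6% of 11027 genes tested were lower and 18.4% higher. The median difference was -1.02 on the log2 scale, against 0.01 over all genes tested. With J7 groups taken from the genotype entry, 15 of the genes could be tested, with 10 lower and 0 higher. Of all 6650 genes tested in that fit, 2768 were lower and 2913 higher. Cdc6 had the largest difference, -2.12 ± 0.17 (adjusted p = 2.64e-11). A set of 17 genes were higher in the CTL change and lower in the RIPK3 change (Cdc6, Chaf1a, Dut, Fen1, Gins2, Gins4, Mcm2, Mcm5, Mcm7, Mcm10, Pcna, Pold2, Rfc5, Rpa2, Rrm2, Tk1, Uhrf1). Lower in both were 12 genes, among them Pola1, Rrm1 and Chaf1b, and higher in both were 6. No gene was lower in the CTL change and higher in the RIPK3 change. How many of all genes tested fell into each of these classes was not counted. The E2F words, in the windows found, occurred in 4 of 22 genes higher in J7_CTL (Mcm5, Mcm7, Cdc6, Cdt1) and in 6 of 11 genes lower there (Mcm6, Gins3, Pola1, Pole2, Pold1, Rfc3). Of the genes not called there, 1 of 5 held such a word (Mcm3). In the RIPK3 change the words occurred in 11 of 32 lower genes, 1 of 5 higher genes (Cdt1) and 0 of 2 not called. These counts are a description with no test.

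**Figure D3:**
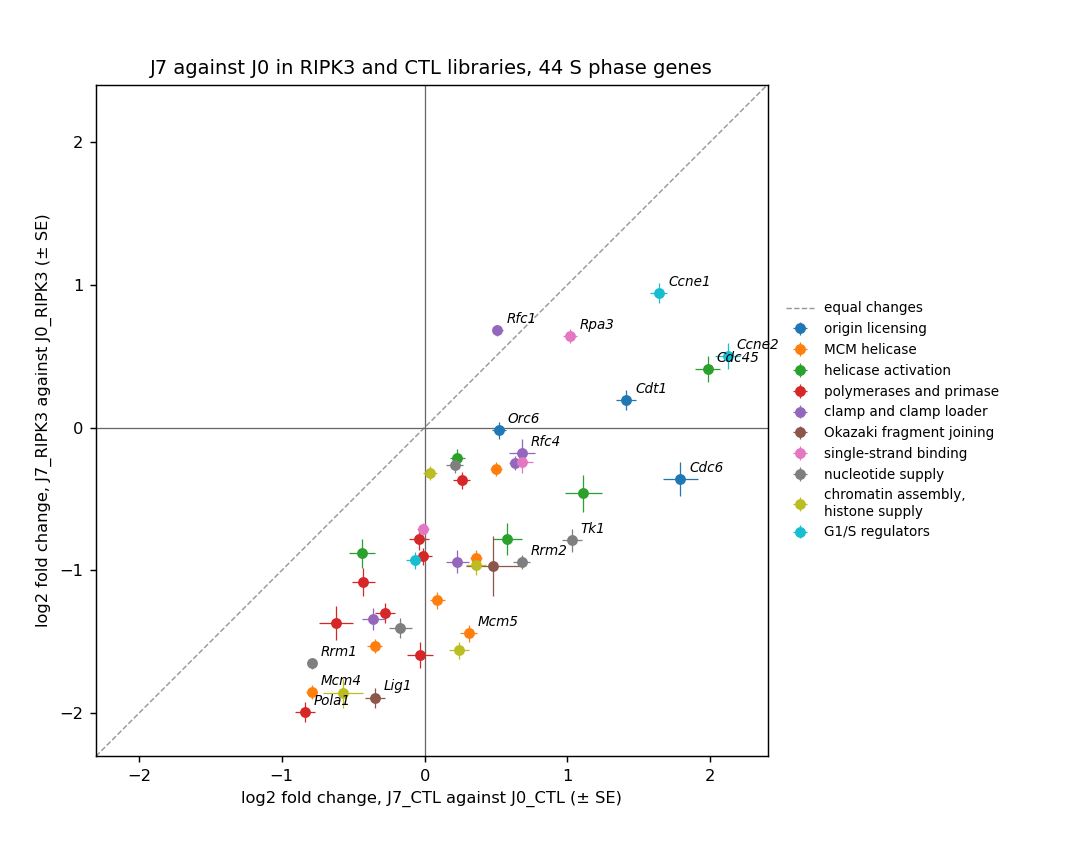
Log2 fold change of J7_RIPK3 against J0_RIPK3 (vertical) and of J7_CTL against J0_CTL (horizontal), with SE (edgeR, n = 3 libraries a group), for the 44 S phase genes with counts in all 4 groups, coloured by role; the dashed line marks equal changes. Of the 44 points 43 lie below the dashed line and Rfc1 lies above it.

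The comparison of J7_RIPK3 with J7_CTL asks how the differentiated cells differed. Of 45 S phase genes tested, 36 were lower and 2 higher, Rfc1 and Slbp, with 7 not called (Ccne1, Chaf1b, Dut, Gins3, Pole2, Rfc3, Tyms), where 29.5% of 11170 genes tested were lower and 29.6% higher. The median log2 fold change was -0.39, against 0.00 over all genes tested. Lig1 was the lowest by fold change, with 12.8, 12.9 and 13.6 CPM in J7_RIPK3, against 24.6, 21.6 and 23.3 in J7_CTL (1.77-fold lower, log2 -0.81 ± 0.08, adjusted p = 1.00e-08). Mcm5 had 17.7, 20.2 and 20.1 CPM in J7_RIPK3, against 31.9, 32.2 and 33.1 in J7_CTL (1.68-fold lower, log2 -0.73 ± 0.07). Orc1, the largest origin recognition subunit, had 2.71, 2.92 and 3.02 CPM in J7_RIPK3, against 4.97, 4.59 and 4.03 in J7_CTL (log2 -0.63 ± 0.16, adjusted p = 0.00172). These 3 groups of values did not overlap, and how many of all genes tested did not was not counted. Rfc1 had 151, 166 and 151 CPM in J7_RIPK3, against 109, 107 and 107 in J7_CTL (1.44-fold higher, log2 0.54 ± 0.04, adjusted p = 1.97e-10). Ccne1 had 37.2, 37.3 and 34.8 CPM in J7_RIPK3 and 36.3, 37.1 and 38.4 in J7_CTL, which overlap (log2 -0.02 ± 0.05, adjusted p = 0.759). Leaving out 1 library left 32 to 36 genes lower, and the calls of Mcm10, Pole and Rfc5 were lost without J7_CTL 3 or J7_RIPK3 1, that of Rpa3 without J7_CTL 1 or J7_RIPK3 3, and that of Mcm7 without J7_CTL 1, J7_CTL 3, J7_RIPK3 1 or J7_RIPK3 2. Mcm10 was also not called without J7_RIPK3 3, and DESeq2's Wald test did not call Rpa3 or Mcm7. The J0 comparison and this one share their libraries with the difference between the changes, so the 3 results are not independent.

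The MLKL groups can be described for few members, because the tables list few of them. These members had to differ in some table with an MLKL group to be listed, so their counts are not support for anything beyond the listed genes. In J0_MLKL against J0_CTL, 12 genes could be tested, 5 were higher and 4 lower, where 40.4% of 3824 genes tested were higher and 43.2% lower, and the median was -0.07, against -0.04 over all genes tested. Gins2 had 13.3, 17.4 and 12.9 CPM in J0_MLKL, against 7.24, 7.92 and 7.95 in J0_CTL (1.88-fold, log2 0.95 ± 0.13, adjusted p = 0.000507). Cdt1 had 16.0, 19.2 and 17.7 CPM in J0_MLKL, against 11.7, 10.8 and 11.5 in J0_CTL (log2 0.67 ± 0.10, adjusted p = 0.000595). Rfc3 had 21.1, 28.7 and 21.5 CPM in J0_MLKL, against 17.8, 17.8 and 15.3 in J0_CTL (log2 0.52 ± 0.13, adjusted p = 0.00772). The second J0_MLKL library was the high one of the 3 in each of these genes. Gins4 had 42.6, 50.6 and 40.4 CPM in J0_MLKL, against 33.1, 32.6 and 32.9 in J0_CTL (log2 0.47 ± 0.09), and Mcm6 had 64.3, 67.6 and 60.8, against 51.5, 46.9 and 50.2 (log2 0.41 ± 0.07, adjusted p = 0.001). Ccne1 was lower, with 4.92, 5.81 and 3.94 CPM in J0_MLKL, against 11.6, 11.1 and 12 in J0_CTL (2.37-fold lower, log2 -1.21 ± 0.14, adjusted p = 0.000203). Ccne2 had 3.32, 3.03 and 3.25 CPM in J0_MLKL, against 4.57, 5.32 and 5.09 in J0_CTL (log2 -0.61 ± 0.13, adjusted p = 0.00343). So both cyclin E genes were lower here, whereas both were higher in J0_RIPK3 against the same control libraries. Rrm2 had 18.3, 18.7 and 17.6 CPM in J0_MLKL, against 23.6, 24.5 and 22.3 in J0_CTL (log2 -0.34 ± 0.08), and Rrm1 had 102, 94.9 and 101, against 123, 124 and 123 (log2 -0.29 ± 0.06, adjusted p = 0.00244). No group of these 9 called genes overlapped with its control, nor did that of Cdc6, which was not called. How many of all genes tested did not overlap was not counted. Mcm10 (log2 -0.42 ± 0.21) was called lower with the replicate block, without J0_CTL 3 or without J0_MLKL 2. The 4 listed fibroblast markers (Thy1, Col1a1, Col3a1, Gata2) summed to 11070 to 11671 CPM in J0_MLKL, against 7973 to 8458 in J0_CTL, with 3 called higher and Thy1 lower. The 6 adipocyte markers summed to 400 to 507 CPM in J0_MLKL, against 290 to 298 in J0_CTL, with Adipoq at 0 in both. Of the 4 that could be tested, 1 was called higher and 3 lower. Lpl made up most of each sum, with 462, 363 and 478 CPM in J0_MLKL, against 244, 240 and 247 in J0_CTL. The 4 listed mitotic genes (Aurkb, Bub1, Kif20a, Tpx2) summed to 46 to 51 CPM in J0_MLKL, against 61 to 63 in J0_CTL, and 3 were called lower. The part of these markers in the S phase values was not tested.

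In J7_MLKL against J0_MLKL, 7 genes could be tested and 6 were higher, 0 lower (35.8% and 30.9% of 3075 genes tested were higher and lower). The median was 1.05, against 0.03 over all genes tested. Cdc6 had 6.80, 7.46 and 6.17 CPM in J7_MLKL, against 2.76, 2.43 and 2.09 in J0_MLKL (2.81-fold, log2 1.45 ± 0.18, adjusted p = 0.000916). Ccne2 had 9.0, 10.3 and 6.47 CPM in J7_MLKL, against 3.32, 3.03 and 3.25 in J0_MLKL (log2 1.39 ± 0.21), and Mcm10 had 5.02, 5.99 and 6.32, against 2.59, 3.35 and 2.28 (log2 1.04 ± 0.21, adjusted p = 0.00461). Rrm2 had 27.5, 28.4 and 28.2 CPM in J7_MLKL, against 18.3, 18.7 and 17.6 in J0_MLKL (log2 0.59 ± 0.10). These 4 did not overlap between groups, nor did Tk1 and Ccne1, and how many of all genes tested did not overlap was not counted. Tk1 had 23.1, 21.7 and 47.9 CPM in J7_MLKL, against 11.8, 14 and 10.8 in J0_MLKL (log2 1.32 ± 0.33, adjusted p = 0.0118), and without the third J7_MLKL library the log2 fold change was 0.84. Ccne1 had 7.80, 8.34 and 14.7 CPM in J7_MLKL, against 4.92, 5.81 and 3.94 in J0_MLKL (log2 1.05 ± 0.30, adjusted p = 0.0189), 0.68 without that library, and it was not called without J0_MLKL 1 or J0_MLKL 3 or with the replicate block. Mcm6 was not called, and without both J0_MLKL 2 and J7_MLKL 3 it was lower (log2 -0.17). With J7 groups from the genotype entry, 12 genes could be tested, 7 higher and 4 lower. Of all 3524 genes tested in that fit, 1506 were higher and 1575 lower.

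Against J7_CTL, 15 genes could be tested in J7_MLKL, with 10 lower and 4 higher (Chaf1b, Tyms, Mcm6, Prim1), where 46.4% of 7263 genes tested were lower and 48.5% higher. The median was -0.43, and that of all genes tested was 0.17 (0.07 with total reads and -0.13 at a mean count of at least 50). Ccne1 had 7.80, 8.34 and 14.7 CPM in J7_MLKL, against 36.3, 37.1 and 38.4 in J7_CTL (3.63-fold lower, log2 -1.75 ± 0.26, adjusted p = 0.000837). Rpa3 had 17.7, 18.7 and 28.8 CPM in J7_MLKL, against 57.9, 54.8 and 55.9 in J7_CTL (log2 -1.26 ± 0.20, adjusted p = 0.00117). Chaf1b had 10.8, 9.95 and 21.8 CPM in J7_MLKL, against 7.0, 4.26 and 5.37 in J7_CTL (log2 1.46 ± 0.36, adjusted p = 0.00745). The third J7_MLKL library was the high one in all 3 genes, and without it the log2 fold changes were -2.14, -1.56 and 0.98, with the same 10 lower and 4 higher in number. Tyms was not called without J7_CTL 3, Rfc1 without J7_CTL 1, and Mcm10 with the replicate block or without J7_CTL 1, J7_CTL 3, J7_MLKL 1 or J7_MLKL 2. Adipocyte markers moved with this comparison: all 6 were lower in J7_MLKL, with sums of 3406 to 4759 CPM, against 18812 to 19749 in J7_CTL, and the third library held the most Adipoq (684 CPM, against 320 and 384 in the first and second). The 5 listed fibroblast markers, Dlk1 not being listed, were all higher, with sums of 7729 to 9440 CPM in J7_MLKL and 2782 to 2855 in J7_CTL. Their part in the S phase genes' values was not tested. The J7 minus J0 change in MLKL differed from that in CTL for 1 of 7 genes, Ccne2 (difference -0.77 ± 0.23, adjusted p = 0.0102), with 0 higher, where 26.3% of 3033 genes tested were lower and 39% higher. DESeq2 size factors gave 4 of 7 lower, and all genes then split 963 higher and 1012 lower in place of 1184 and 797. Without J7_MLKL 3, Ccne1 was also lower (difference -1.01).

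Other replication genes were read as lists beside the 47. Of all genes tested, the shares called higher and lower, against which the counts of these lists, the regulators and the mitotic genes stand, were 28.3% and 27.4% in J0_RIPK3 against J0_CTL, 48.2% and 47.6% in J7_CTL against J0_CTL, 49.3% and 48.5% in J7_RIPK3 against J0_RIPK3, and 29.6% and 29.5% in J7_RIPK3 against J7_CTL. Of 31 further replication factors, 26 could be tested in J0_RIPK3 against J0_CTL, with 19 higher and 3 lower. Pclaf, a PCNA-binding protein, Dbf4, the activator of the CDC7 kinase, and Asf1b, a histone chaperone, led with log2 1.34 ± 0.07, 1.22 ± 0.07 and 1.16 ± 0.11. Of 28 tested in J7_CTL against J0_CTL, 21 were higher and 5 lower, with Asf1b at log2 2.18 ± 0.10, Pole4, a small polymerase epsilon subunit, at 1.71 ± 0.04 and Orc2 at 1.36 ± 0.06. Of 24 tested in J7_RIPK3 against J0_RIPK3, 13 were lower and 10 higher, led by Pclaf (log2 -2.25 ± 0.10), Dbf4 (-1.92 ± 0.10) and Rnaseh2b (-1.47 ± 0.12). So this list was nearer to balance in the RIPK3 change than the 47 genes, a difference that was not tested. In J7_RIPK3 against J7_CTL, 16 of 24 were lower and 3 higher. Fork protection and S phase repair genes were higher in 16 of 17 tested in J0_RIPK3 against J0_CTL, led by Clspn, the checkpoint adaptor (log2 1.47 ± 0.10), Fancd2 (1.25 ± 0.12) and Rad51ap1 (1.00 ± 0.11), and 1 was lower. They were lower in 12 of 14 in J7_RIPK3 against J0_RIPK3, and higher in 11 of 17 in J7_CTL against J0_CTL with 1 lower. Brca1 led at J7 in both, with 75.0, 69.0 and 70.4 CPM in J7_RIPK3, against 15.5, 15.6 and 15.7 in J0_RIPK3 (log2 2.17 ± 0.06), and 57.2, 57.0 and 55.9 in J7_CTL, against 7.93, 7.86 and 8.03 in J0_CTL (log2 2.79 ± 0.06).

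Among 25 regulators of the cycle, 21 could be tested in J0_RIPK3 against J0_CTL, with 13 higher and 1 lower. The atypical repressors E2f8 and E2f7 led with log2 1.43 ± 0.13 and 1.34 ± 0.11, before the inhibitor Cdkn2c at 0.92 ± 0.05. E2f7 had 11.3, 12.5 and 13.2 CPM in J0_RIPK3, against 5.35, 3.98 and 5.05 in J0_CTL. At J7 it had 2.96, 1.83 and 1.96 CPM in J7_RIPK3, so that J7_RIPK3 was lower than J0_RIPK3 by log2 -2.48 ± 0.15. Of 23 regulators tested in J7_CTL against J0_CTL, 12 were higher and 9 lower, where 48.2% and 47.6% of all genes tested were. E2f2, an activating E2F, had 6.42, 6.82 and 6.64 CPM in J7_CTL, against 0.23, 0.446 and 0.202 in J0_CTL (log2 4.43 ± 0.23). Ccnd1, cyclin D1, had 38.2, 37.3 and 36.4 CPM in J7_CTL, against 335, 322 and 329 in J0_CTL (log2 -3.18 ± 0.04), and the inhibitor Cdkn2b was lower by log2 -2.03 ± 0.04.

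Mitotic genes moved with the S phase genes in part. In J0_RIPK3 against J0_CTL all 24 tested were higher (median log2 1.27), led by Kif20a (1.52 ± 0.06), Prc1 (1.42 ± 0.07) and Plk1 (1.41 ± 0.07). In J7_RIPK3 against J0_RIPK3 all 25 were lower (median -2.20), led by Kif23 (-4.21 ± 0.12), Kif11 (-3.34 ± 0.37) and Cenpf (-3.34 ± 0.11), and in J7_RIPK3 against J7_CTL 23 of 25 were lower. In J7_CTL against J0_CTL, however, 15 of 24 mitotic genes were lower and 3 higher (median -0.25), led by Kif23 (-1.86 ± 0.12), Ccnb2 (-1.45 ± 0.15) and Cenpe (-1.03 ± 0.10), while 26 of 45 S phase genes were higher and 12 lower. In each library, the median log2 ratio of the 44 S phase genes to their J0_CTL means was -0.15, -0.13 and -0.15 in J7_RIPK3, 0.63, 0.69 and 0.63 in J0_RIPK3, and 0.27, 0.22 and 0.37 in J7_CTL. The same median over 24 mitotic genes was -0.90, -0.83 and -1.07 in J7_RIPK3, 1.32, 1.36 and 1.22 in J0_RIPK3, and -0.27, -0.26 and -0.17 in J7_CTL. Every J7_CTL library thus stood above 0 for the S phase genes and below 0 for the mitotic genes. Fibroblast markers were also lower at J7, with sums of 1822 to 1973 CPM in J7_RIPK3, 10851 to 10955 in J0_RIPK3, 2782 to 2855 in J7_CTL and 8598 to 9084 in J0_CTL. The part of cell type and of cycling cells in these values was not tested.

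**Figure D4:**
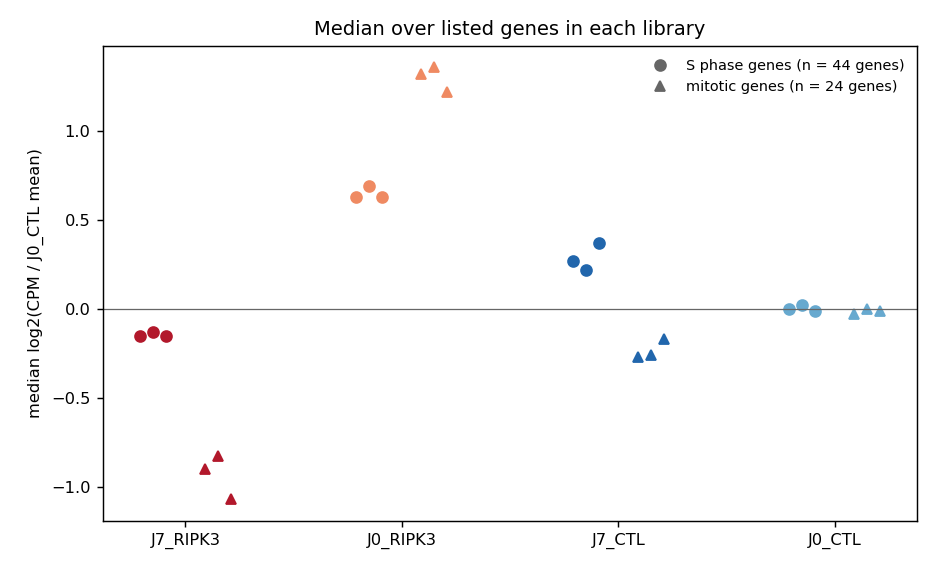
Median over genes of log2(CPM over the J0_CTL mean) in each of 12 libraries, for 44 S phase genes (circles) and 24 mitotic genes (triangles), with 3 libraries per group. Both medians are highest in J0_RIPK3 and lowest in J7_RIPK3, and in J7_CTL the circles are above 0 and the triangles below it.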

How the data were processed

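RNA was sequenced from 18 libraries in 6 groups of 3. Per the submitters' processing notes, FastQC 0.11.9, HISAT2, featureCounts 1.5.0-p3 and DESeq2 were used with build mm10. The authors deposited 7 comparison tables with raw read counts per gene. The authors also deposited normalised counts, a signal scaled by 1 size factor per library, and FPKM on the gene model's length. Per the file headers, the tables give the authors' log2 fold change and p-value for each comparison.

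Counts were joined by gene ID, and each library's total reads were recovered from the deposited counts and FPKM. Each comparison was fitted over its own groups in edgeR 4.0.16 (R 4.3.3) with filterByExpr, TMM factors on the recovered totals, the quasi-likelihood test and Benjamini-Hochberg adjustment over all genes tested; a call is an adjusted p under 0.05. An SE is the log2 fold change divided by the square root of F. The steps were tested on simulated counts. Alternatives were other scalings, filters on low counts, DESeq2 1.42.0, a replicate block, left-out libraries and J7 groups by the genotype entry.

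Groups follow the sample titles. The 47 genes and the lists were chosen with earlier results of these data known, and no p was adjusted over a list. In each role, values per library are given for the members with the highest and lowest log2 fold change in J0_RIPK3 against J0_CTL and in J7_CTL against J0_CTL, and for members called in J0_MLKL against J0_CTL or J7_MLKL against J0_MLKL. Other lists are given by counts and their 3 largest changes. Members named for their contrast with these, with the Brca1, E2f7 and Orc1 values, were chosen after the values were seen.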

Additional observations from a re-analysis of the deposited data

Results flagged for a closer look

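The change between J7 and J0 differed between RIPK3 and CTL by a test of the difference itself (edgeR, adjusted p under 0.05) for 43 genes that were lower in the RIPK3 change and 1 that was higher. The values that follow are those differences on the log2 scale for the genes whose libraries are given. In licensing they were -2.12 for Cdc6, -1.20 for Cdt1 and -0.52 for Orc6. In the helicase they were -1.74 for Mcm5, -1.15 for Mcm6, -1.03 for Mcm4 and -0.77 for Mcm7. Its activators had -1.55 for Cdc45 and for Mcm10, -1.34 for Gins2 and -0.42 for Gins3 and for Gins4. Polymerase genes had -1.53 for Pole, -1.12 for Pola1 and -0.61 for Pold2. Clamp loader genes had -0.96 for Rfc3 and -0.84 for Rfc4. Okazaki fragment genes had -1.52 for Lig1 and -1.43 for Fen1. Single-strand binding genes had -0.91 for Rpa2, -0.68 for Rpa1 and -0.36 for Rpa3. Nucleotide genes had -1.81 for Tk1, -1.60 for Rrm2, -0.84 for Rrm1 and -0.45 for Dut. Chromatin genes had -1.30 for Chaf1a, -1.27 for Chaf1b and -0.34 for Slbp. G1/S regulators had -1.61 for Ccne2, -0.84 for E2f1 and -0.68 for Ccne1.

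The same test between MLKL and CTL called 1 gene lower, Ccne2, with a difference of -0.77.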

How the results depend on the processing

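Among the values of single genes under an alternative, 3689 kept their side of the threshold, 50 lost the call, 25 gained one and 13 changed sign. A sign change was counted only with a call in the main fit or the alternative. Genes called in neither are in the 3689 whatever their sign. Tk1 in J7_MLKL against J7_CTL was such a gene (log2 0.46, and -0.04 without J7_MLKL 3). All 13 counted sign changes came from taking the J7 groups from the genotype entry. In J7_RIPK3 against J0_RIPK3 that gave 7 lower and 0 higher of 15 tested, with log2 values of -0.17 for Cdc45, -0.85 for Ccne1, -0.55 for Rpa3, -0.46 for Ccne2, -0.34 for Rfc1 and 0.28 for Tk1. In J7_MLKL against J0_MLKL it gave 4 lower. For the RIPK3 change minus the CTL change it gave 10 lower and 0 higher, with 0.27 for Chaf1b, 0.31 for Prim1 and -0.82 for Rfc1. For the MLKL change minus the CTL change it gave 7 lower and 1 higher, with 1.17 for Ccne1, -0.81 for Tk1, -0.62 for Mcm6 and 0.21 for Ccne2. The swap tests other libraries and fewer genes. Over all genes tested, it gave 1341 lower and 1513 higher of 6442 in J7_RIPK3 against J0_RIPK3. The counts in J7_MLKL against J0_MLKL were 1575 lower and 1506 higher of 3524. For the RIPK3 change minus the CTL change they were 2768 lower and 2913 higher of 6650. For the MLKL change minus the CTL change they were 1078 lower and 998 higher of 3522.

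In the last of these comparisons DESeq2 size factors, DESeq2's Wald test and a mean count of at least 50 each gave 4 lower in place of 1. Over all genes, 1012 of 3033, 1069 of 3033 and 878 of 2609 tested were lower in these fits, in that order. The main fit had 797 of 3033 lower. Leaving out 1 library gave 1 to 3 of the S phase genes lower. The cause was not tested. Without both J0_MLKL 2 and J7_MLKL 3, 1 gene was lower in J7_MLKL against J0_MLKL. Same-numbered libraries of different groups had correlations of -0.07 to 0.09 over 18 pairs, so the numbers were not taken as pairing. With the replicate block, 46 genes were higher in J0_RIPK3 against J0_CTL, 26 higher and 11 lower in J7_CTL against J0_CTL, and 5 higher in J7_MLKL against J0_MLKL. Of the 47 genes, Fen1, with few reads, had the widest SE in the comparisons of CTL and RIPK3 groups.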
